A study of Mus musculus with 33 samples.

Results

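The cone culture was compared between its last time points, day 21 and day 35. The comparison holds 6 of the 33 RNA sequencing libraries of the study: the 3 labelled as cone induction at day 35 and the 3 labelled as cone induction at day 21. All cells started as retinal progenitor cells of C57BL/6J mice, taken from retina at embryonic day 14. Both groups received COCO protein, the cone induction treatment of the labels, and by the labels the groups differ in the day of culture. COCO, the product of Dand5, is released by cells and blocks ligands of the BMP, TGF-beta and Wnt families. The rod culture, induced with taurine and retinoic acid and sampled at the same days in 3 libraries each, is used to see whether a change was shared. Cells primed for cone induction at day 0 and cone libraries at days 5 and 12 give earlier levels. How long each factor stayed in the medium and how the cells were grown is not given in the sources used here, nor whether the 3 libraries of a group came from separate cultures or animals. If they did not, p-values measure only the spread between these samples, which may be technical.

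Retinal progenitor cells divide and give rise in order to ganglion, horizontal, cone, amacrine, rod and bipolar neurons and at last to Muller glia, the radial support cells that keep some progenitor genes. Cone and rod precursors share the transcription factors Otx2 and Crx, cone genes include Thrb, Opn1sw and Arr3, and Nrl and Nr2e3 direct a precursor to the rod fate. In bulk libraries such as these, fewer cells of a type and less RNA per cell cannot be told apart.

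Genes received 9395265, 11961715 and 13554445 counts in the day 21 libraries and 13282637, 13943566 and 13594391 in the day 35 libraries, and 20587 to 23195 genes had a count. Levels are given as CPM, counts scaled to library size by TMM, for replicates 1, 2 and 3 in that order. The floor of 3 counts lay between 0.222 and 0.394 CPM. The day 21 replicate 1 library stood apart: 14.6% of its reads fell outside genes against 26.6% and 28.0% in the other day 21 libraries, and its summed rod photoreceptor markers were at 9.71 CPM against 210 and 190. At day 35 the share outside genes was 21.5%, 22.6% and 20.3%. Genes over ribosomal RNA sequence took 16.3%, 8.01% and 9.54% of gene counts at day 21 and 13.3%, 14.5% and 11.9% at day 35. Day 21 replicates 2 and 3 thus differed from all day 35 libraries in both shares. Day 35 replicate 2 stood apart by its matrix genes, which were the lowest of day 35 in most cases described here. Of the cone list, the mature cone genes Opn1sw and Arr3 were at or near the floor at these days. The whole list summed to 28.7, 62.5 and 46.9 CPM at day 21, of which Thrb made up 40.1% to 74%. Opn1sw, the short-wave cone opsin, had counts of 1, 0 and 1 at day 21 and 0 in each library at day 35, and Arr3, cone arrestin, had counts of 0, 3 and 5 and then 0, 1 and 0. Markers of Muller glia summed to 7322, 6005 and 5588 CPM at day 21 and 6718, 7289 and 7236 CPM at day 35, and retinal progenitor markers to 1379, 1376 and 1256 and then 1448, 1554 and 1406 CPM. The progenitor sum leans on Ccnd1, a cell cycle gene named after its values were seen. Ccnd1 had 422, 312.9 and 367.4 CPM and then 579.7, 524.7 and 517.1 CPM. Of the progenitor list's fitted changes, 9 were negative and 3 positive, with a median log2 fold change of -0.11.

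From day 21 to day 35, genes of the interferon response, immediate early genes and extracellular matrix genes were among those that rose, and the receptor gene Kit, the neurogenic factors Neurog2 and Sox11 and the transcription factor Myb were among those that fell. Of 18150 genes tested, 166 were called, 0.915% of the genes, at an edgeR adjusted p under 0.05. Of these, 98 were higher at day 35, 0.54% of all genes, and 68 were lower, 0.375%. A change of 2-fold or more was fitted for 62 of the higher and 28 of the lower calls. The libraries of the 2 days did not overlap for 165 of the 166 calls, where 9.54% of all genes lay wholly higher and 7.5% wholly lower at day 35. The median change over all genes was near 0 (log2 fold change -0.00097). In 72 of the 98 higher calls, replicate 2 was the lowest of the day 35 libraries. Without that library and day 21 replicate 1, 563 genes were called, 133 of them among the 166. Without day 21 replicate 2, 18 genes were called, and without day 35 replicate 3, 30 genes.

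**Figure D1:**
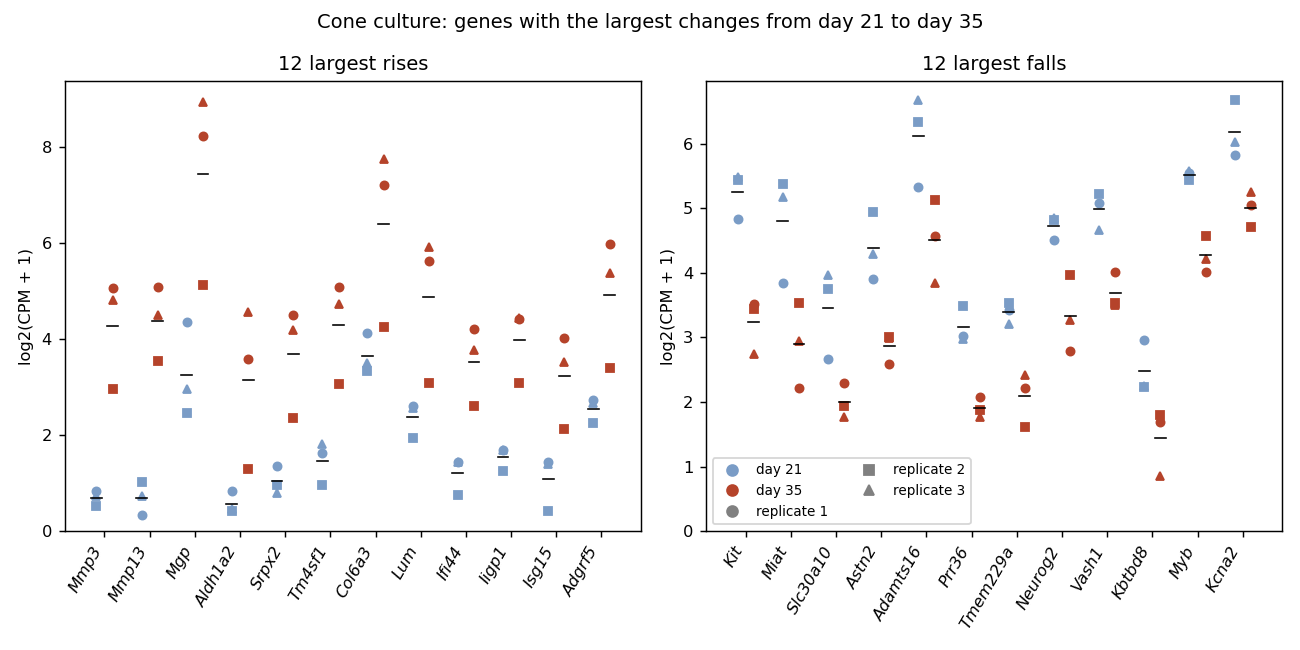
Levels of the 12 genes with the largest rises (left) and the 12 with the largest falls (right) in cone culture, as log2(CPM + 1) on the vertical axis, with a point for each library at day 21 (blue) and day 35 (red), a shape for each replicate and a black line at the mean. No gene has day 21 and day 35 points that overlap, and the square of replicate 2 is the lowest red point for each of the 12 rises, as for Mgp at 34.2 CPM against 301.4 and 492.3 CPM.

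Interferons are secreted signals that switch on antiviral genes and the MHC class I pathway, many of them through a short promoter motif, the interferon-stimulated response element (ISRE). Of the 16 genes of the interferon and MHC class I list, 5 were called higher, against 0.54% of all genes, and 0 lower. All 16 had a positive fitted change, 14 had day 35 libraries wholly above those of day 21, where 9.54% of all genes did, and the list's median log2 fold change was 1.15. At an unadjusted p under 0.05, 13 of 16 passed as higher, where 6.99% of all genes did. The called members were Ifit3, B2m, Isg15, Ifit1 and Ifi27.

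Ifit3, an antiviral RNA-binding family member, had 13.9, 8.99 and 14.9 CPM at day 21 and 52.8, 31.2 and 48.9 CPM at day 35 (log2 fold change 1.82 ± 0.35 SE, adjusted p = 0.0102). Its relative Ifit1 had 17.3, 9.24 and 17.4 CPM and then 66.7, 32.6 and 64.6 CPM (1.90 ± 0.44 SE, adjusted p = 0.0373). In both genes every day 35 library lay above every day 21 library. Isg15, a ubiquitin-like protein that is attached to other proteins, went from 1.71, 0.342 and 1.63 CPM to 15.3, 3.35 and 10.6 CPM (3.00 ± 0.65 SE, adjusted p = 0.0284). B2m, the light chain of MHC class I, went from 101.2, 66.2 and 94.8 CPM to 182.2, 142.8 and 189.4 CPM (0.97 ± 0.19 SE, adjusted p = 0.0116). Replicate 2 was the lowest library on both days for these 4 genes, and the days did not overlap. Ifi44 and Iigp1, an interferon-induced gene and an interferon-inducible GTPase on no list here, were among the 12 largest rises. Ifi44 had 1.71, 0.685 and 1.70 CPM and then 17.6, 5.07 and 12.7 CPM (3.11 ± 0.55 SE, adjusted p = 0.00624), and Iigp1 had 2.23, 1.37 and 2.22 CPM and then 20.4, 7.47 and 20.7 CPM (3.06 ± 0.60 SE, adjusted p = 0.0163).

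The stretches of promoter that follow are shown because they hold ISRE matches in 4 of the called list members. They come from the RefSeq windows of GRCm38.p6, from 250 bases before to 50 after a gene's start, and are written 5′ to 3′ on the gene's strand. Capitals mark matches to the ISRE core (GAAA, any 2 bases, GAAA) on either strand, and matches may overlap.
Isg15 (chr4:156200855-156200916, - strand): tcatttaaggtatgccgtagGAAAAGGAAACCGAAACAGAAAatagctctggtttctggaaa
Ifit1 (chr19:34640765-34640833, + strand): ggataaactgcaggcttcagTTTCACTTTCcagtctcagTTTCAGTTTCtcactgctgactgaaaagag
Ifit3 (chr19:34583353-34583436, + strand): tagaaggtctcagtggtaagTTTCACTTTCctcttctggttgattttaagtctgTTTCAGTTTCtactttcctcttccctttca
B2m (chr2:122147528-122147577, + strand): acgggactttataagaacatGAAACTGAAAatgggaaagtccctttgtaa
Isg15 holds 3 overlapping matches that begin at -78 from its start, Ifit1 and Ifit3 hold 2 each, and B2m holds 1.

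Of the 98 genes called higher, 72 had a window, and 16 of these (22.2%) held an ISRE match on either strand. Of the genes tested, 11417 had a window and 407 (3.56%) held a match, and over all genes with a window the share was 3.99%. Only 1 of the 51 windows of genes called lower held a match (1.96%). The 16 were Apol9b, B2m, Gbp3, Ifit1, Ifit3, Ifitm3, Irgm1, Isg15, Lgals9, Mmp13, Ppp1r15a, Serpinb6a, Shisa5, Spp1, Stat2 and Tm4sf1. No match was found for Ifi27, the other called list member, or for Ifi44 and Iigp1, which may have had no window. Of the interferon list, 13 genes had a window and 6 of these (46.2%) held a match. A match describes the sequence of a window and is not a bound site. The CRE letters TGACGTCA were in 6 of the 72 windows of higher genes (8.33%) and in 3.56% of those of genes tested, and the CArG box, searched by name, was in 3 of 72 (4.17%) and in 1.57%.

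The list's summed level was 345, 239 and 325 CPM at day 21 and 767, 511 and 684 CPM at day 35. It had been 14.8 to 18.1 CPM in cone primed cells at day 0 and 135 to 150 CPM at day 12. Ifit1 had 0 counts in each day 0 library and 3.85, 4.43 and 2.24 CPM at day 12. Microglia, which carry many interferon-responsive genes, were followed by a list of 18 markers. Of the 16 tested, 0 were called by edgeR and 0 had an unadjusted p under 0.05, all 16 changes were positive, and the summed level was 95.9, 161 and 135 CPM at day 21 and 110, 154 and 398 CPM at day 35. The part of microglia in the interferon genes was not tested. The number of interferon list members called ran from 0, when day 21 replicate 2, day 35 replicate 1 or day 35 replicate 3 was left out, to 9, when day 35 replicate 2 was left out. The list's median stayed between 0.98 and 1.36 in these 6 fits.

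**Figure D2:**
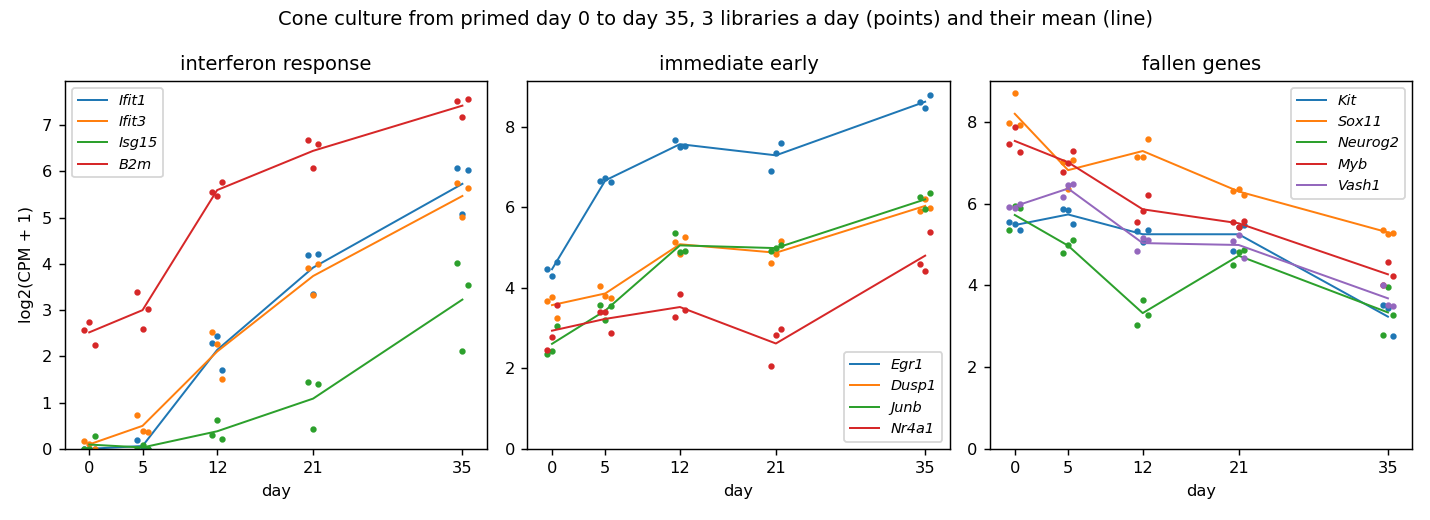
Levels in cone culture, as log2(CPM + 1) on the vertical axis, against the day of culture, with 3 points a day for the libraries and a line through their means. The 4 interferon response genes are low at day 0 and highest at day 35, the 4 immediate early genes lie higher at day 35 than at day 21, and the 5 fallen genes are lower at day 35 than at day 21.

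Immediate early genes are transcribed within minutes of a stimulus such as a growth factor, calcium entry, injury or handling. Of 11 on the list, 5 were called higher (Egr1, Dusp1, Junb, Nr4a1 and Klf4), against 0.54% of all genes, and 0 lower. An unadjusted p under 0.05 as higher was found for 9 of 11, where 6.99% of all genes passed, and 9 had day 35 libraries wholly above day 21, where 9.54% of all genes did. The list's median log2 fold change was 1.31. Egr1, a zinc finger transcription factor, had 119.5, 163.8 and 194.9 CPM at day 21 and 391.6, 352.6 and 446.9 CPM at day 35 (1.31 ± 0.19 SE, adjusted p = 0.00106). Dusp1, a phosphatase that switches off MAP kinases, had 23.6, 27.7 and 34.9 CPM and then 59.2, 73.7 and 62.3 CPM (1.17 ± 0.18 SE, adjusted p = 0.00114). For both, the lowest day 35 library was well above the highest of day 21. Junb, an AP-1 subunit, had 29.1, 30.9 and 32.4 CPM and then 75.9, 61.8 and 81.7 CPM (1.24 ± 0.21 SE, adjusted p = 0.00315). Nr4a1, an orphan nuclear receptor, had 3.15, 6.08 and 6.88 CPM and then 23.1, 20.4 and 41.0 CPM (2.36 ± 0.47 SE, adjusted p = 0.0138). Day 21 replicate 1 was the lowest library for Egr1, Dusp1, Junb and Nr4a1. Between 3 and 6 list members were called when each of the 6 libraries was left out in turn.

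Of the 13 genes of the stress list (ATF4 and unfolded protein responses), Atf3 alone was called, where 0.54% of all genes were called higher. Atf3, a stress-induced repressor that is also an immediate early gene, had 3.28, 5.82 and 7.18 CPM at day 21 and 15.7, 21.8 and 17.9 CPM at day 35 (1.74 ± 0.33 SE, adjusted p = 0.00709). All 13 fitted changes of the list were positive, and the median was 0.39. An unadjusted p under 0.05 as higher was found for 7, where 6.99% of all genes passed. The days did not overlap for 4 of the 13 genes, Atf3 among them, where 9.54% of all genes lay wholly higher.

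The extracellular matrix genes that rose came from several lists, while many other matrix genes were not called. Of 18 matrix enzymes and inhibitors, 2 secreted metalloproteinases were called higher, against 0.54% of all genes, and 0 members lower. Mmp3, stromelysin, had 0.787, 0.428 and 0.666 CPM at day 21 and 32.5, 6.78 and 27.0 CPM at day 35 (5.14 ± 0.72 SE, adjusted p = 0.00436). Mmp13, a collagenase, had 0.262, 1.03 and 0.666 CPM and then 33.1, 10.7 and 21.6 CPM (4.98 ± 0.85 SE, adjusted p = 0.00464). Both were close to the floor at day 21 in each library and above it in each day 35 library. The median of the 18 was 0.60.

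Lum, the small leucine-rich proteoglycan lumican, was the called member of the fibroblast and mesenchyme list, 1 of 14 tested. Over all genes, 0.54% were called higher. Lum had 5.12, 2.83 and 4.96 CPM at day 21 and 48.1, 7.47 and 59.3 CPM at day 35 (3.16 ± 0.67 SE, adjusted p = 0.0186). Col6a3, a chain of collagen VI, was the called member of 15 other collagens, with 16.4, 9.07 and 10.4 CPM and then 148, 17.9 and 214.2 CPM (3.42 ± 0.72 SE, adjusted p = 0.0176). Mgp, matrix Gla protein, an inhibitor of calcification, had 19.4, 4.54 and 6.74 CPM and then 301.4, 34.2 and 492.3 CPM (4.81 ± 0.97 SE, adjusted p = 0.0166). In Lum, Col6a3 and Mgp, day 35 replicate 2 was far below the other day 35 libraries and still above all of day 21. The fibrillar collagen genes Col1a1, Col1a2 and Col3a1 were not called, and in each the days overlapped through that library. Their fitted changes were 1.85 ± 0.52 SE for Col1a1 (adjusted p = 0.0993), 2.12 ± 0.72 SE for Col1a2 (adjusted p = 0.172) and 2.58 ± 0.86 SE for Col3a1 (adjusted p = 0.162). Of the 15 other collagens, 13 changes were positive, 6 passed an unadjusted p under 0.05 as higher and 2, Col2a1 and Col9a1, as lower. Over all genes, 6.99% passed as higher and 6.29% as lower. Col2a1, the collagen of cartilage and vitreous, had 401, 569.4 and 324.4 CPM at day 21 and 222.8, 136.2 and 232.3 CPM at day 35 (-1.13 ± 0.36 SE, adjusted p = 0.142), with no overlap between the days. Of 14 basement membrane genes, 0 were called by edgeR and 2 had an unadjusted p under 0.05 as higher, with 9 changes positive, 5 negative and a median of 0.14. Col1a1, Col1a2, Col3a1, Col2a1 and Col9a1 are named although the rule for naming did not pick them, after their values were seen.

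The fibroblast and mesenchyme list had a median log2 fold change of 1.87, with 13 of 14 changes positive. An unadjusted p under 0.05 as higher was found for 9, where 6.99% of all genes passed. The list's summed level was 3258, 3753 and 4153 CPM at day 21 and 5841, 3996 and 6948 CPM at day 35. In cone primed cells at day 0 it had been 62.9 to 105 CPM. With day 35 replicate 2 left out, 3 of its members were called. With day 21 replicate 2, day 21 replicate 3, day 35 replicate 1 or day 35 replicate 3 left out, 0 were. The smooth muscle and pericyte list summed to 1979, 1274 and 1367 CPM at day 21 and 2595, 2304 and 1953 CPM at day 35. Its days overlapped through day 21 replicate 1, and 0 of 12 genes were called. An unadjusted p under 0.05 as higher was found for 3, where 6.99% of all genes passed. The part of these cells in the matrix genes was not tested.

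Further rises were 1 or 2 members of their lists or on none, where 0.54% of all genes were called higher. Aldh1a2, an enzyme that makes retinoic acid, was the 1 called gene of 12 in the retinoic acid pathway, with 0.787, 0.342 and 0.370 CPM at day 21 and 11.1, 1.46 and 22.5 CPM at day 35 (4.60 ± 0.84 SE, adjusted p = 0.00692). Its day 21 libraries held 6, 4 and 5 counts, close to the floor of 3 counts, so the size of its rise is uncertain. Cyp26a1, which degrades retinoic acid and is induced by it, was at 2.36, 8.99 and 3.85 CPM and then 2.73, 5.07 and 2.74 CPM and was not called (-0.57 ± 0.47 SE, adjusted p = 0.638). So the Aldh1a2 libraries did not overlap between days, while those of Cyp26a1 did. Ccn1, a matricellular protein and a target of TGF-beta and of YAP, was the called gene of 14 in the TGF-beta list, with 296, 217 and 274 CPM and then 625, 513 and 638 CPM (1.17 ± 0.26 SE, adjusted p = 0.0286). Cd44, a hyaluronan receptor found on Muller glia, reactive astrocytes and mesenchymal cells, had 75.7, 65.4 and 70.9 CPM and then 222.5, 115.9 and 213.2 CPM (1.38 ± 0.25 SE, adjusted p = 0.00619). Lcn2, a secreted iron-scavenging protein of reactive glia, had 14.6, 9.50 and 10.2 CPM and then 30.6, 81.1 and 54.3 CPM (2.29 ± 0.45 SE, adjusted p = 0.0176). Cd44 and Lcn2 were the called members of 11 on the astrocyte and reactive glia list, and for Lcn2 replicate 2 was the highest day 35 library. Of the 11 changes 6 were positive and 5 negative, and 1 passed an unadjusted p under 0.05 as lower (6.29% of all genes). The list's median was 0.40, and with each library left out it ran from 0.11 to 0.53. Hes1, a Notch target that keeps progenitors undifferentiated, was the called member of 13 retinal progenitor genes, with 32.5, 22.7 and 36.9 CPM and then 52.1, 51.9 and 67.3 CPM (0.90 ± 0.21 SE, adjusted p = 0.031). The median of the 13 was -0.11, with 9 changes negative and 3 positive. The 10 Muller glia genes had 0 called by edgeR and 1, as lower, at an unadjusted p under 0.05 (6.29% of all genes). Their median of 0.14 ran from -0.18, without day 35 replicate 2, to 0.23, without day 35 replicate 1, and so changed sign.

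The remaining large rises were Srpx2, Tm4sf1 and Adgrf5. Srpx2, a secreted sushi-repeat protein, had 1.57, 0.942 and 0.740 CPM at day 21 and 21.7, 4.12 and 17.3 CPM at day 35 (3.76 ± 0.82 SE, adjusted p = 0.0284). Tm4sf1, a membrane protein of endothelial and mesenchymal cells, had 2.10, 0.942 and 2.52 CPM and then 32.9, 7.38 and 25.5 CPM (3.56 ± 0.76 SE, adjusted p = 0.0286). Adgrf5, an adhesion receptor of the G protein-coupled class, had 5.64, 3.77 and 5.40 CPM and then 62.0, 9.62 and 40.6 CPM (2.93 ± 0.63 SE, adjusted p = 0.0219). In each of the 3, the day 35 libraries lay above those of day 21, with replicate 2 nearest to them. The 11 tested complement and chemokine genes had a median of 1.25 and 0 called by edgeR. An unadjusted p under 0.05 as higher was found for 5, where 6.99% of all genes passed. Markers of endothelium summed to 256, 296 and 263 CPM at day 21 and 211, 294 and 231 CPM at day 35, with 0 of 6 tested genes called by edgeR and 1 at an unadjusted p under 0.05.

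**Figure D3:**
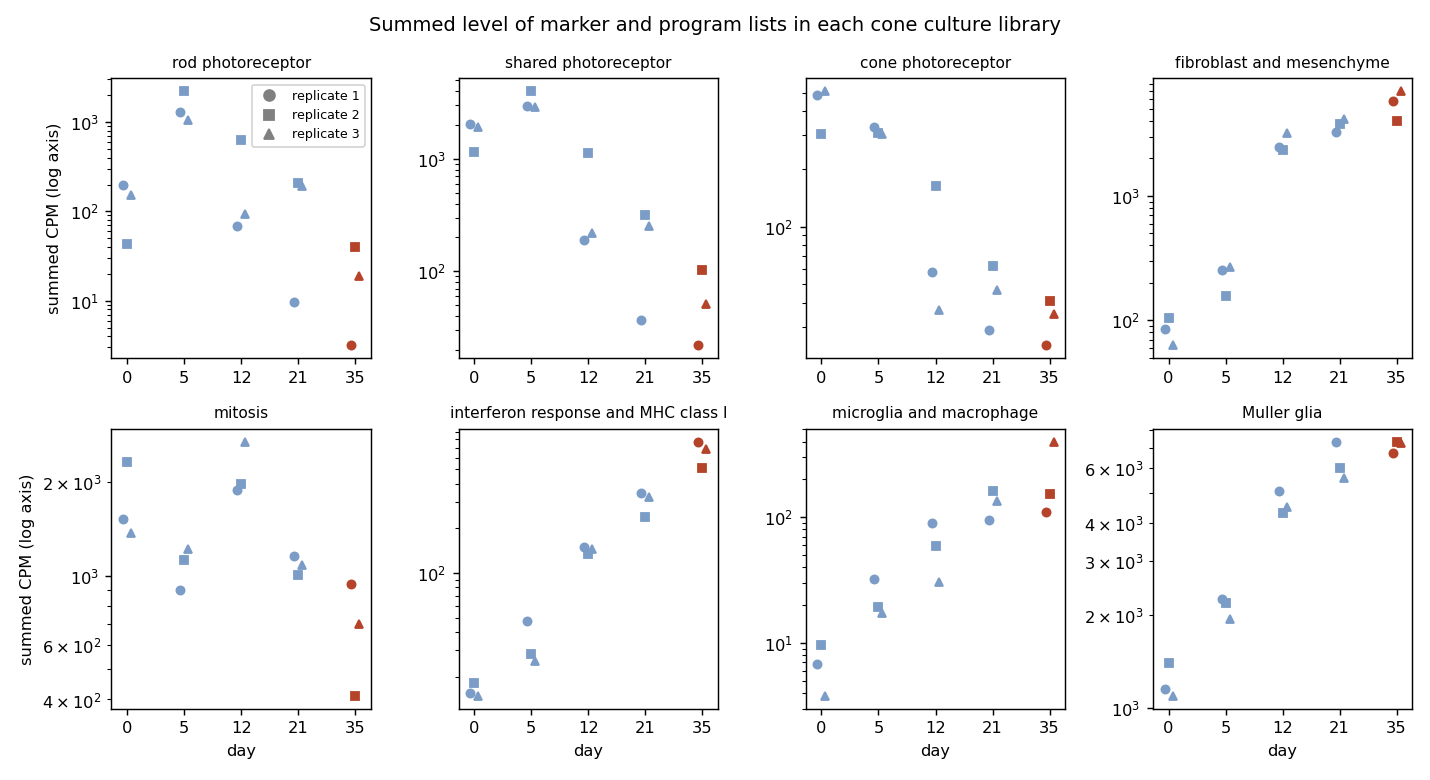
Summed CPM of 8 gene lists (log axis, each panel with its own range) in the cone culture libraries at days 0, 5, 12, 21 and 35, with a shape for each replicate and day 35 in red. Interferon genes rose from at most 18.1 CPM at day 0 to at least 511 CPM at day 35, the rod photoreceptor list differed between day 21 libraries from 9.71 to 210 CPM, and day 35 replicate 2 was the lowest day 35 library for the mesenchyme and mitosis lists.

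The clearest fall was that of Kit, the receptor tyrosine kinase for stem cell factor (chr5:75574916-75656722, + strand, GRCm38). It had 27.6, 42.5 and 43.6 CPM at day 21 and 10.4, 9.87 and 5.73 CPM at day 35 (-2.13 ± 0.22 SE, adjusted p = 1.02e-05). The lowest day 21 library was above 2 times the highest day 35 library. At days 0, 5 and 12 Kit had been at 40.1 to 46.2, 44.1 to 57.9 and 32.2 to 40.3 CPM, so no earlier library was as low as those of day 35. In rod culture Kit had 37.3, 41.6 and 50.7 CPM at day 21 and 42.7, 51.3 and 34.7 CPM at day 35 (-0.01 ± 0.21 SE, adjusted p = 0.99).

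Neurogenic genes mark the step at which a progenitor leaves the cycle and becomes a neuron. Of 12 on that list, 2 were called lower and 1 higher, against 0.375% and 0.54% of all genes. At an unadjusted p under 0.05, 6 passed as lower, where 6.29% of all genes did. Day 35 libraries lay wholly below day 21 for 7, where 7.5% of all genes did. The list's median was -0.71 (-0.46 without day 21 replicate 1). Neurog2, a proneural transcription factor, had 21.8, 27.1 and 28.0 CPM at day 21 and 5.89, 14.6 and 8.63 CPM at day 35 (-1.40 ± 0.34 SE, adjusted p = 0.0428). Sox11, a transcription factor of immature neurons, had 79.0, 81.2 and 73.4 CPM and then 39.9, 37.2 and 37.9 CPM (-1.02 ± 0.20 SE, adjusted p = 0.0123). The Sox11 libraries of each day lay close together and the days stood well apart. Btg2, an antiproliferative gene that is both a mark of neurogenic divisions and an immediate early gene, went the other way, from 84.2, 82.9 and 101.9 CPM to 134.9, 175.2 and 163.3 CPM (0.81 ± 0.17 SE, adjusted p = 0.0163). Sox15, a Sox family transcription factor on the same list, was at 0.131, 0.0856 and 0.296 CPM and then 0.171, 0.0858 and 0.484 CPM, at or near the floor, and was not called (adjusted p = 0.874). With day 21 replicate 2 or day 35 replicate 3 left out, no neurogenic gene was called.

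Myb, Miat, Astn2, Kcna2 and Vash1 were also among the largest falls. Myb, a transcription factor of cycling progenitors, had 45.8, 42.5 and 46.6 CPM at day 21 and 15.2, 22.8 and 17.7 CPM at day 35 (-1.28 ± 0.20 SE, adjusted p = 0.00165). Miat, a long non-coding RNA of retina and neurons, had 13.4, 40.5 and 35.1 CPM and then 3.67, 10.6 and 6.70 CPM (-2.10 ± 0.38 SE, adjusted p = 0.00613). Myb libraries were tight within a day, while the low Miat library of day 21 was replicate 1. Astn2, a protein of neuron-glia adhesion, had 14.0, 29.9 and 18.5 CPM and then 5.04, 7.04 and 6.94 CPM (-1.72 ± 0.28 SE, adjusted p = 0.00314). Kcna2, a voltage-gated potassium channel, had 55.8, 101 and 64.4 CPM and then 32.2, 25.2 and 37.3 CPM (-1.23 ± 0.21 SE, adjusted p = 0.00436). Vash1, an enzyme that removes the end tyrosine of tubulin, had 32.9, 36.4 and 24.3 CPM and then 15.2, 10.6 and 10.3 CPM (-1.37 ± 0.18 SE, adjusted p = 0.000157). None of these 5 genes had a day 35 library above a day 21 library.

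The other large falls followed the same layout, with no overlap between the days. Slc30a10, a manganese exporter, went from 5.38, 12.4 and 14.6 CPM to 3.93, 2.83 and 2.42 CPM (-1.84 ± 0.34 SE, adjusted p = 0.00635), with day 21 replicate 1 nearest to day 35. Adamts16, a secreted metalloproteinase, went from 39.1, 80.3 and 101.6 CPM to 22.7, 33.8 and 13.3 CPM (-1.67 ± 0.39 SE, adjusted p = 0.0324). Adamts16 was low at day 0, at 0.485 to 1.01 CPM, and was thus a gene that was high in culture at day 21 and lower at day 35. Prr36 (-1.54 ± 0.24 SE), Tmem229a (-1.49 ± 0.29 SE) and Kbtbd8 (-1.35 ± 0.31 SE), the last an adaptor of a ubiquitin ligase, ranged from 3.68 to 10.5 CPM at day 21 and from 0.807 to 4.36 CPM at day 35.

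Photoreceptor markers were lower in fitted value at day 35, with no gene called. Of 13 rod photoreceptor genes all 13 had a negative change, with a median of -2.88, and 0 were called by edgeR. An unadjusted p under 0.05 was found for 6, where 6.29% of all genes passed as lower. In 0 of the 13 did the libraries of the days separate: the list's sum in day 21 replicate 1, 9.71 CPM, lay within the day 35 range of 3.16 to 40.4 CPM. Gnat1, rod transducin, had 0.918, 28.9 and 38.4 CPM at day 21 and 0.853, 4.55 and 1.94 CPM at day 35 (-3.24 ± 1.14 SE, adjusted p = 0.187). Sag, rod arrestin, had 3.15, 44.3 and 37.6 CPM and then 1.11, 7.81 and 5.41 CPM (-2.59 ± 1.23 SE, adjusted p = 0.361). The rod factors Nrl and Nr2e3 had counts of 0 in replicate 1 on both days. Nrl was otherwise at 3.77 and 2.37 CPM and then 0.429 and 0.0807 CPM, and Nr2e3 at 7.02 and 5.77 CPM and then 0.687 and 0.807 CPM. With day 21 replicate 1 left out, the median of the 13 was -3.40 and still 0 were called.

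The 14 tested genes shared by cones and rods had a median of -1.78, with 13 negative and 0 called by edgeR. Crx, the photoreceptor transcription factor, had 8.00, 39.6 and 25.1 CPM at day 21 and 2.82, 14.4 and 8.72 CPM at day 35 (-1.51 ± 0.67 SE, adjusted p = 0.325). Otx2, which acts above Crx, had 6.56, 19.3 and 11.6 CPM and then 2.56, 8.59 and 4.12 CPM (-1.32 ± 0.53 SE, adjusted p = 0.262). On each day replicate 1 was the lowest and replicate 2 the highest for Crx and Otx2, and the days overlapped. At day 0 Crx had been at 339.6 to 541.1 CPM, so most of its fall came before day 21.

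The 10 tested cone photoreceptor genes had a median of -0.90, all 10 negative. They had 0 called and 1 at an unadjusted p under 0.05 (6.29% of all genes passed as lower). Their summed level was 28.7, 62.5 and 46.9 CPM at day 21 and 23.9, 40.7 and 34.8 CPM at day 35, against 306 to 511 CPM in cone primed cells at day 0. The median was -0.34 without day 21 replicate 2 and -1.43 without day 35 replicate 2. Thrb, the thyroid hormone receptor of the cone fate, is also expressed by other cells. Thrb made up 40.1% to 74% of the day 21 sum and 54.9% to 84.7% of the day 35 sum, and other list genes the rest. It had 21.3, 25.1 and 24.5 CPM at day 21 and 20.2, 22.3 and 22.0 CPM at day 35 (-0.14 ± 0.43 SE, adjusted p = 0.925). Gnat2, cone transducin, had 0.656, 1.46 and 1.33 CPM and then 0.597, 1.12 and 1.13 CPM (-0.33 ± 0.73 SE, adjusted p = 0.889). For Thrb and Gnat2 the days overlapped and no difference was detectable at this depth and spread.

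Other neuronal lists had 0 calls each. Medians were -0.61 over 15 neuronal and synaptic genes, -0.45 over 14 amacrine and horizontal genes, -0.78 over 9 bipolar genes and -1.04 over 12 ganglion cell genes. In that order 4, 2, 1 and 2 genes had an unadjusted p under 0.05 as lower, where 6.29% of all genes passed. As higher, 1 amacrine and horizontal gene passed, where 6.99% of all genes did. These medians moved with single libraries and stayed negative. They were nearest to 0 without day 21 replicate 2 for the neuronal (-0.26), amacrine and horizontal (-0.13) and bipolar (-0.19) lists, and farthest from 0 without day 35 replicate 2 for all 4, at -0.98, -0.78, -1.21 and -1.57. Olig2, a factor of some late progenitors and of oligodendrocytes, had 6.17, 8.90 and 13.7 CPM and then 5.04, 2.49 and 4.84 CPM (-1.23 ± 0.40 SE, adjusted p = 0.155). Its days did not overlap, yet it missed the threshold.

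Cell cycle genes were lower in fitted value without a call. All 20 mitosis genes had a negative change, with a median of -0.40, and 0 were called by edgeR. An unadjusted p under 0.05 was found for 8, where 6.29% of all genes passed as lower, and 7 had day 35 wholly below day 21, where 7.5% of all genes did. Mki67, a protein of dividing cells, had 380.6, 364 and 394 CPM at day 21 and 311.7, 121.7 and 231.2 CPM at day 35 (-0.78 ± 0.29 SE, adjusted p = 0.222). Top2a, which untangles replicated DNA, had 179.4, 159.6 and 162.9 CPM and then 147.2, 58.1 and 112.4 CPM (-0.66 ± 0.28 SE, adjusted p = 0.299). Both were lower in every day 35 library, most of all in replicate 2. The list's median was -0.15 with day 35 replicate 2 left out and -0.75 with day 35 replicate 1 left out. The 18 DNA replication genes had 0 called by edgeR and 1 at an unadjusted p under 0.05, with a median of -0.16 that was -0.01 and -0.45 without those libraries. The CHR letters TTTGAA, a promoter motif of mitotic genes, were in 11 of the 16 mitosis genes with a window (68.8%), in 14.0% of windows of genes tested, in 23.5% of those of genes called lower and in 22.2% of those of genes called higher.

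Genes of the BMP, Wnt and TGF-beta pathways, whose ligands COCO is known to block, were also followed, though no list held Wnt ligands. Tested were 15 BMP ligands and antagonists, 9 BMP response genes, 6 Wnt inhibitors and 9 Wnt response genes, and 0 were called by edgeR. In that order 1, 2, 2 and 2 had an unadjusted p under 0.05, where 13.3% of all genes did. All of these were higher at day 35 except 1 of the Wnt response genes, which was lower. The medians were 0.33, 0.24, 0.41 and -0.09, and with each library left out they ran from 0.20 to 0.33, 0.03 to 0.41, 0.25 to 0.74 and -0.27 to 0.04. The 0.20, the 0.03 and the -0.27 came without day 35 replicate 2, the 0.74 without day 21 replicate 2, and the 0.04 without day 35 replicate 1. The TGF-beta list, with Ccn1 as its called member, had 6 of 14 genes at an unadjusted p under 0.05 as higher and 1 as lower. Over all genes, 6.99% passed as higher and 6.29% as lower. Of the list's changes 12 were positive, and the median was 0.54, the highest of these 5 lists. Day 35 libraries lay wholly above day 21 for 5 of its genes, where 9.54% of all genes did. Id3, a BMP target, had 74.3, 62.9 and 49.9 CPM at day 21 and 114.9, 69.6 and 105.4 CPM at day 35 (0.64 ± 0.32 SE, adjusted p = 0.391). Axin2, a Wnt target, had 25.6, 29.3 and 24.6 CPM and then 17.3, 29.3 and 22.9 CPM (-0.19 ± 0.19 SE, adjusted p = 0.708). In both genes the libraries of the 2 days overlapped.

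**Figure D4:**
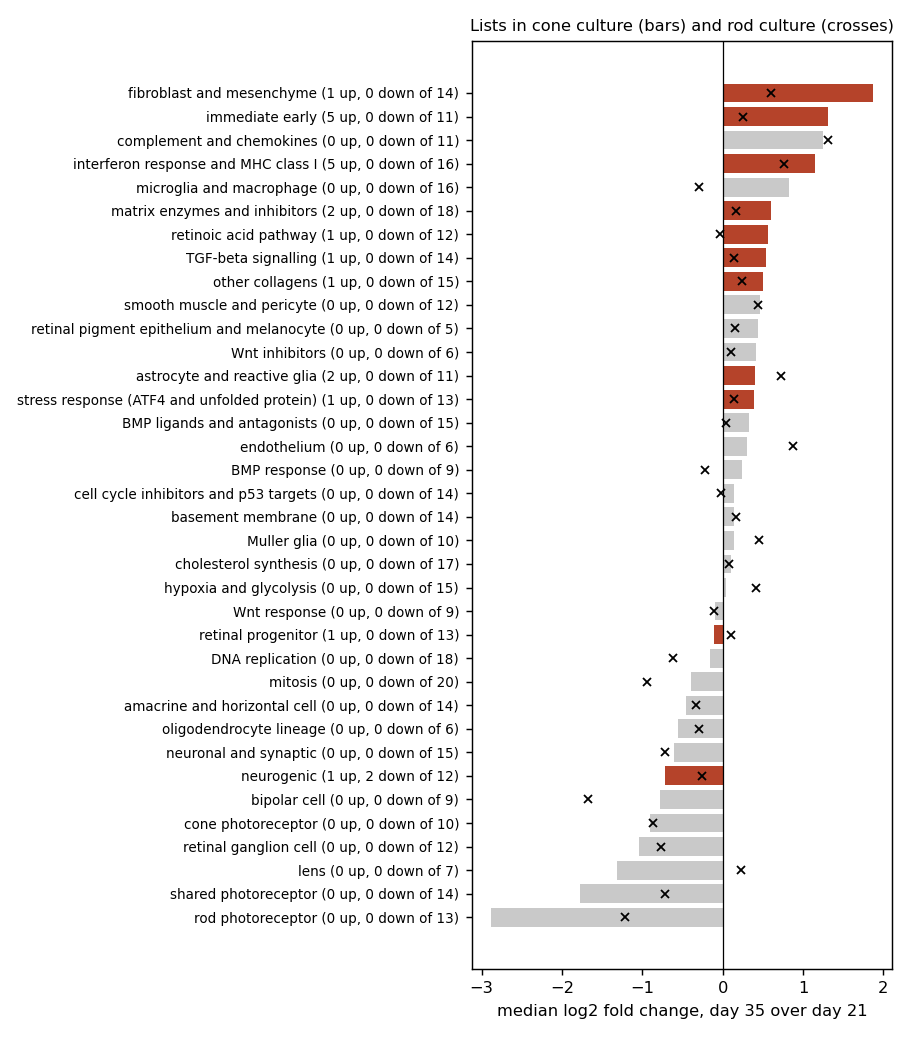
Median log2 fold change from day 21 to day 35 over the tested genes of each list with at least 5 tested, in cone culture (bars, red where a member was called) and rod culture (crosses), with the called members in brackets. Mesenchyme, immediate early, complement and interferon lists had the highest medians in cone culture, and the rod photoreceptor list the lowest at -2.88 with 0 called.

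The rod culture was compared over the same days to see which changes were shared. There, 280 genes were called, 1.54% of those tested, and 28 were called in both cultures, 16.9% of the cone calls and 10.0% of the rod calls, all in the same direction. Of the 166 cone calls, 154 had the same sign in rod culture, including all 68 lower calls and 86 of the 98 higher calls. The 166 include genes at the floor in rod culture, such as Isg15 and Aldh1a2. The same-sign share over all genes tested was not computed, so this count has no background. Lcn2, Mgp and Ifit3 were called higher in both, with rod changes of 2.99 ± 0.47 SE (adjusted p = 0.0027), 4.24 ± 0.98 SE (adjusted p = 0.031) and 1.97 ± 0.42 SE (adjusted p = 0.018). Myb, Vash1 and Sox11 were called lower in both, with rod changes of -1.04 ± 0.21 SE, -0.76 ± 0.17 SE and -0.79 ± 0.20 SE.

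The difference between the changes of the cultures was tested as an interaction. In simulated counts this test called 32% of genes changed 2-fold and 70% of those changed 4-fold, so it misses differences. At an adjusted p under 0.05, 1 gene was called, 0.00551% of those tested, and it was Kit, whose cone change was lower than its rod change by -2.12 on the log2 scale (adjusted p = 0.00337). At an unadjusted p under 0.05 there were 965 genes, 5.32% of those tested. Of the immediate early list, 8 of 11 passed that level and 0 the adjusted one. The list's median was 1.31 in cone culture and 0.25 in rod culture. In rod culture, Nr4a1 had 7.88, 44.6 and 37.8 CPM at day 21 and 26.5, 32.5 and 20.3 CPM at day 35, so those days overlapped. Of the interferon list, 1 of 16 passed the unadjusted level, and the median in rod culture was 0.76. Its summed level in rod culture was 183, 119 and 157 CPM at day 21 and 276, 193 and 246 CPM at day 35. Isg15 stayed at or under the floor in each rod library of these days, and Aldh1a2 likewise, so that no rod fold is given for them.

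**Figure D5:**
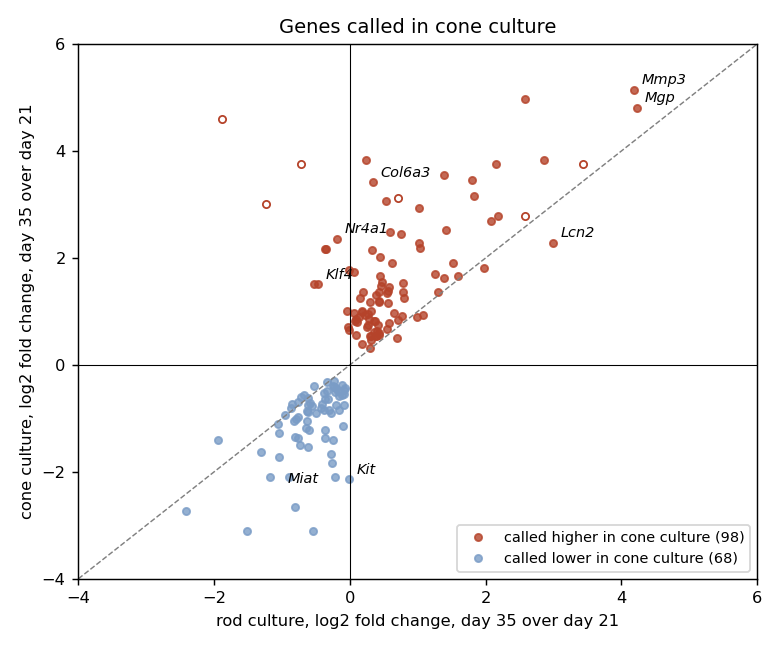
Fitted log2 fold change from day 21 to day 35 in rod culture (horizontal axis) and cone culture (vertical axis) for the 166 genes called in cone culture, with higher calls in red, lower calls in blue, open circles for genes with at most 3 counts in each rod library, whose rod value is no fold, and a dashed line where both changes are equal. All 68 lower calls lie left of 0 on the rod axis, and Kit lies at -2.13 in cone culture and -0.01 in rod culture.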

How the data were processed

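Total RNA of mouse retinal progenitor cell cultures was sequenced after low-input extraction and library preparation with Takara kits, per the labels' protocols. HISAT2, StringTie and HTSeq and the build GRCm38 are named in the submitters' processing notes, without versions, settings or strand. Whole-number read counts per gene were taken from the authors' deposited count tables, and their summary lines for unassigned reads were left out. TPM, FPKM and a per-base coverage signal are in the deposited abundance tables. TPM served only as an alternative, since 23.2% to 32.0% of genes with at least 100 counts were listed at a TPM of 0 in the 6 libraries, and FPKM and coverage were not used.

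All 33 libraries, 3 in each of 11 groups of treatment and day, entered 1 quasi-likelihood fit of edgeR 4.0.16 (R 4.3.3, TMM scaling, genes filtered by filterByExpr with its minimum count at 10), and 18150 genes were tested. Contrasts were day 35 minus day 21 in cone culture, the same in rod culture, and their difference. The threshold for a call was a p under 0.05 after Benjamini-Hochberg adjustment. Errors are model standard errors (SE). Reads carry no molecular identifiers, so floors of 3 counts cover counting error only. The labels give no batch. The steps were tested on simulated counts with 100 genes changed 2-fold and 100 changed 4-fold at day 35 in cone culture. The cone comparison called 56% and 83% of these, with 4 false calls among the other genes. The interaction called 32% and 70%, with 7 false calls.

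The 40 gene lists hold 504 genes. Beside a fixed set (Sox15, Crx, Otx2, Thrb, Opn1sw, Arr3, Gnat2, Nrl, Nr2e3, Mki67, Olig2 and Cyp26a1), the 12 largest rises and falls were named among calls whose libraries did not overlap and whose log2 CPM averaged 1 or more, passing over unnamed gene models, then up to 4 called members of a list, or the 2 of highest level where none was called, and up to 4 genes a direction in the interaction. The comparison, members and lists were chosen with earlier results of these data known. Promoter windows are those of RefSeq on GRCm38.p6, matched by symbol. Alternatives were RLE scaling, other filters, DESeq2 1.42.0, voom with quality weights (limma 3.58.1), the compared libraries alone, a replicate block, each library left out, limma on log2 TPM, and no mitochondrial or ribosomal RNA genes. Figures used Python 3.11.15 and matplotlib 3.10.9.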

Additional observations from a re-analysis of the deposited data

Results flagged for a closer look

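The change of Kit from day 21 to day 35 differed between the cultures, by -2.12 on the log2 scale (cone change minus rod change, edgeR adjusted p = 0.00337). Each cone library at day 35 lay below each at day 21, and in rod culture the days overlapped. Of 21 fits on counts with another setting or with a library left out, 20 kept the difference under an adjusted p of 0.05, with values from -2.40 to -1.89. The exception was the fit on the compared libraries alone, which gave -2.14 with an adjusted p of 0.3. In the TPM fits the difference was -0.31 to -1.19 and was not called.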

How the results depend on the processing

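Of the 166 genes called in cone culture, all kept their sign in each fit on counts that tested them. Their number moved to 304 with DESeq2 (53.6% of them higher, where the main share was 59.0%), 2357 with voom and quality weights (66.7% higher), 19 with the compared libraries alone (79.0% higher), 462 with those libraries and a replicate block, 563 without both libraries that stood apart, and 11, 13 and 15 on log2 TPM plus 0.1, TPM plus 1 and rescaled TPM plus 1. The block on compared libraries, the fit without both libraries and the rescaled TPM were chosen after seeing the data. With each cone library left out, 18 to 358 genes were called. With the replicate block on all libraries 192 genes were called, 156 of them shared with the main calls. Deviations of libraries with the same number correlated at 0.39, 0.27 and 0.00, and those with different numbers at -0.36 to 0.17. The labels do not say whether the numbers mark pairs, and these values do not settle it. On TPM plus 1, plus 0.1 and rescaled, 118, 119 and 120 of the 166 (165 for rescaled) kept their sign and 2 were called. Among the named genes, Hes1 turned to -0.70, -1.71 and -1.30 in these fits, and Tm4sf1 to -0.10, -0.28 and -0.14; the cause was not tested.

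The 1 gene of the interaction became 3 with DESeq2, 0 with the compared libraries alone (790 at an unadjusted p under 0.05), 2 on TPM plus 0.1, 6 on rescaled TPM, 2 without a filter, 20 with voom, and 1 to 2 with a library left out. The 280 calls in rod culture became 732 with DESeq2, 3 with the compared libraries alone, 874 with voom, 22, 15 and 16 on log2 TPM plus 0.1, plus 1 and rescaled, and 59 to 314 with a library left out. RLE scaling, the other filters and leaving out mitochondrial and ribosomal RNA genes kept the cone count within 166 to 177. Genes near the floor of 3 counts, such as Opn1sw, Arr3 and Sox15, could not show a fall at this depth.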

Other observations

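Several called genes outside the lists can be read beside them, and all of those named here were chosen after their values were seen. Of the 166 calls, 143 were on no list. The interferon signal transducers Stat2 and Irf9 were called higher: Stat2 had 21.9, 23.1 and 27.4 CPM at day 21 and 50.7, 36.2 and 44.8 CPM at day 35 (0.86 ± 0.17 SE, edgeR adjusted p = 0.0122), and Irf9 had 28.9, 19.0 and 26.1 CPM and then 51.0, 30.8 and 48.7 CPM (0.82 ± 0.19 SE, adjusted p = 0.0373). Ifitm3, a membrane protein that blocks virus entry, had 27.6, 17.0 and 19.6 CPM and then 101.6, 36.4 and 102 CPM (1.91 ± 0.38 SE, adjusted p = 0.0161). Errfi1, a feedback inhibitor of the EGF receptor and the higher call with the smallest p, had 44.4, 40.9 and 41.6 CPM and then 121.5, 81.0 and 143.7 CPM (1.45 ± 0.18 SE, adjusted p = 0.000154). The induced genes Zfp36 (1.35 ± 0.25 SE), Ptgs2 (1.77 ± 0.37 SE) and Arc (2.02 ± 0.50 SE) were called as well. Spp1, osteopontin, had 150.4, 90.8 and 126.7 CPM and then 883.4, 194.1 and 713.8 CPM (2.29 ± 0.51 SE, adjusted p = 0.027), and Bgn, biglycan, 72.9, 41.3 and 53.8 CPM and then 562.5, 82.3 and 514.1 CPM (2.79 ± 0.63 SE, adjusted p = 0.0284), with replicate 2 lowest at day 35 for both.

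Fth1, Hmox1 and Sqstm1 were also called higher. Fth1, the ferritin heavy chain, had 249, 150 and 198 CPM at day 21 and 341, 371 and 431 CPM at day 35 (0.94 ± 0.17 SE, adjusted p = 0.00596), with a rod change of 1.08 ± 0.17 SE (adjusted p = 0.0017). Hmox1, heme oxygenase, changed by 1.24 ± 0.27 SE and Sqstm1, an autophagy receptor, by 0.53 ± 0.12 SE. Hmgb3, Nasp, Ezh2, Cdc7 and Blm, on no list here, were called lower, while the 18 genes of the DNA replication list had 0 called by edgeR and a median of -0.16. Hmgb3, a chromatin protein, had 17.8, 20.7 and 17.7 CPM and then 9.56, 7.30 and 9.36 CPM (-1.10 ± 0.15 SE, adjusted p = 0.000235), with a rod change of -1.06 ± 0.14 SE. Nasp, a histone chaperone, changed by -0.73 ± 0.15 SE, Ezh2, a histone methyltransferase, by -0.56 ± 0.13 SE, Cdc7, a replication kinase, by -0.82 ± 0.19 SE, and Blm, a helicase, by -0.70 ± 0.16 SE. In rod culture Nasp changed by -0.86 ± 0.15 SE, Ezh2 by -0.67 ± 0.13 SE, Cdc7 by -0.87 ± 0.19 SE and Blm by -0.77 ± 0.16 SE, each called.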
